A study of Mus musculus with 76 samples.

Results

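The 38 neurons described here are the cells of one Patch-seq series that came from mice fed a high-fat diet (HFD), 19 of them labelled Ghost and 19 labelled Pomc+. They were chosen by their diet label alone and make up 38 of the 76 cells, the other 38 being 15 Ghost and 23 Pomc+ cells from mice on chow diet (CD). In Patch-seq a neuron is recorded with a glass pipette, its content is drawn into the same pipette, here for 3 min, and a library is made from that content, so each cell is one library. All cells came from the hypothalamus of male PomcCreERT2;tdTomato;Pomc-eGFP mice that received tamoxifen by gavage for 5 days at 12 weeks of age and were placed on their diets 2 weeks later. Red tdTomato therefore stays in any cell whose *Pomc* promoter worked at tamoxifen, and green eGFP shows a promoter at work during the recording. Ghost cells carried tdTomato without eGFP, whereas Pomc+ cells showed eGFP. HFD provided 60% of calories as fat for 6 months, and the HFD cells came from 5 mice in a study of 3 independent experiments. The labels name neither the mouse nor the experiment, so the Ghost cells and the Pomc+ cells count as 1 sample each. Differences are given with their spread over cells and without a test, and how far they vary between mice was not tested.

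Pro-opiomelanocortin (POMC) neurons of the arcuate nucleus produce a precursor protein that convertases and carboxypeptidases cut into melanocyte-stimulating hormone and other peptides, which reduce food intake. They sit beside AgRP neurons, which promote feeding, and both read leptin, insulin and glucose. *Pomc*, *Cartpt* and the T-box factor *Tbx3*, which maintains the peptide identity of these neurons, served here as the markers of the cell type.

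Because both reporters report the *Pomc* promoter, its reference sequence is shown with those of 3 immediate early genes whose mean level was lower in Ghost cells. Each stretch covers 250 bases before to 50 bases after the RefSeq transcription start on GRCm38.p6, 300 bases in all, and capitals mark a TATAAA box in *Pomc* and *Fos* and a TGACGTCA cyclic AMP response element in *Btg2* and *Dusp1*. *Pomc* lies at chr12:3954695-3954994 on the plus strand, *Fos* at chr12:85473640-85473939 on the plus strand, *Btg2* at chr1:134079106-134079405 on the minus strand and *Dusp1* at chr17:26508423-26508722 on the minus strand.
Pomc: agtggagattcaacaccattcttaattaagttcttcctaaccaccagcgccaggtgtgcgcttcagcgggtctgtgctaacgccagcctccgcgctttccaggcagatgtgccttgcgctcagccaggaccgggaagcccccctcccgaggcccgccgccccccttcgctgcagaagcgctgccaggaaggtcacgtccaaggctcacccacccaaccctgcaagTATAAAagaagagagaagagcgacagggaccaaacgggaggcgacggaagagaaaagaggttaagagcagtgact
Fos: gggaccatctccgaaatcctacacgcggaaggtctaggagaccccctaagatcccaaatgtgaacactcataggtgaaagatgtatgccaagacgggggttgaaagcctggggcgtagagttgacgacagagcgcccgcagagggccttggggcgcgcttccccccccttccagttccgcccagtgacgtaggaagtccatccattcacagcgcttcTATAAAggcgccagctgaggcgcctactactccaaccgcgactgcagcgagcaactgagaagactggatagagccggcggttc
Btg2: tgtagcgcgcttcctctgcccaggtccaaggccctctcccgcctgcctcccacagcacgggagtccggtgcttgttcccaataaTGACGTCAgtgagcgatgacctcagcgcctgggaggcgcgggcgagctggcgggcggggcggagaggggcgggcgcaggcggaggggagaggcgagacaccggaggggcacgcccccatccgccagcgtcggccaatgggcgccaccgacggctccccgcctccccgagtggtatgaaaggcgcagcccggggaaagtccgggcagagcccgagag
Dusp1: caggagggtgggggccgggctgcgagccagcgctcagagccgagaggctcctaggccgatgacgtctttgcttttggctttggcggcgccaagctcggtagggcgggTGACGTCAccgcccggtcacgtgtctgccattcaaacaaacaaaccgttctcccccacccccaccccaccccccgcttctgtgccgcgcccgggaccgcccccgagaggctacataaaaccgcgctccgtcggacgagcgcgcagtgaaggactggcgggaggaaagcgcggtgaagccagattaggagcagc
The TATAAA box began 25 bases before the start in *Pomc* and 33 bases before it in *Fos*, and the response element began 166 bases before the start in *Btg2* and 143 bases before it in *Dusp1*. Over all 32851 promoters of this length and on both strands, TGACGTCA was found in 588 (1.79%) and TATAAA in 4473 (13.62%). A STAT site, TTCNNNGAA, was found in 2726 (8.298%) and a CArG box in 535 (1.629%). Of 22 immediate early genes listed here, 18 had a promoter in the table, of which 2 held TGACGTCA, 4 TATAAA, 1 the STAT site and 0 the CArG box. *Egr1*, *Egr3*, *Arc* and *Ier2* had no entry. A match to these letters is a description of the reference and not a site in use.

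Median total counts were close for both labels, but the low end lay lower in Ghost cells, and fewer genes were counted per Ghost cell. Totals spanned 12847 to 1306718 (median 333785) in Ghost and 10534 to 1435547 (median 393797) in Pomc+ cells, with first quartiles of 95010 and 216510. The shallowest were Ghost cells 657 (12900 counts) and 713 (12847) and Pomc+ cell 693 (10534), where a few reads make a high level after scaling. Ghost cells had 839 to 9808 genes with a count, median 2453, and Pomc+ cells 743 to 9144, median 3501. Thinned to 70000 counts per cell, which left out 3 Ghost and 1 Pomc+ cells, the expected median was 2300 genes in Ghost and 2787 in Pomc+ cells. Levels below are counts scaled to 1000000 counts per cell (CPM), and a ratio is the mean CPM of the Ghost cells over that of the Pomc+ cells. Because CPM is not corrected for gene length, values are compared between cells for the same gene only. The cells fall into 4 runs of consecutive cell numbers, of which 637 to 657 (11 Ghost, 10 Pomc+) and 713 to 720 (3 Ghost, 5 Pomc+) hold enough of both labels to be given on their own. What these numbers stand for is not given in the labels.

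*Pomc* RNA was counted in nearly every cell of both labels, and its mean did not separate them. *Pomc* lies on chromosome 12 from 3954951 to 3960642 of GRCm38. Its level ran from 0 to 8826 CPM (median 4171) in Ghost cells, and from 90.9 to 13989 CPM (median 2206) in Pomc+ cells. The ranges overlapped, and the Ghost cells left a gap, with 10 cells at their median or above and the others at 1092 CPM or below. The means were 3686 ± 3421 CPM in Ghost and 3414 ± 3471 CPM in Pomc+ cells (SD over 19 cells each), a ratio of 1.08 that stayed between 0.996 and 1.30 with any 1 cell left out. A count was present in 18 of 19 Ghost cells (94.7%, exact Clopper-Pearson 95% interval 73.97 to 99.87%) and in 19 of 19 Pomc+ cells (82.4 to 100%). Such intervals on shares of cells, here and for *Tbx3* below, treat cells as independent draws and do not cover the spread between mice. In all, 39107 *Pomc* counts were obtained in Ghost cells (exact Poisson 95% interval 38720 to 39497) and 28431 in Pomc+ cells (28101 to 28763), intervals that cover counting error only, since reads amplified by PCR without molecular identifiers are not independent molecules. The runs of cell numbers went opposite ways. In cells 637 to 657 the means were 4431 and 2673 CPM, a ratio of 1.66, while in cells 713 to 720 they were 497 and 3259 CPM, a ratio of 0.152 that rests on 3 Ghost cells. On CD the means were 6296 CPM in Ghost and 11652 CPM in Pomc+ cells, and the difference between diets was not tested.

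*Cartpt*, which encodes the anorexigenic peptide CART and lies on chromosome 13 from 99898489 to 99901091, was as widely counted. Its level ran from 2.53 to 4516 CPM (median 1771) in Ghost cells, and from 0 to 16056 CPM (median 856) in Pomc+ cells. The highest value belonged to Pomc+ cell 719, which held 38.9% of the summed level of its label. The means were 1833 ± 1273 and 2172 ± 3833 CPM, a ratio of 0.844 that became 1.31 without that cell. Within cells 637 to 657 the ratio was 1.48, and within cells 713 to 720 it was 0.388. *Tbx3*, on chromosome 5 from 119670669 to 119684724, was sparse in both labels. It had a count in 7 of 19 Ghost cells (36.8%, interval 16.3 to 61.6%) and in 9 of 19 Pomc+ cells (47.4%, 24.4 to 71.1%), with medians of 0. The highest levels were 232 and 96.9 CPM and the means 30.7 ± 59.3 and 22.2 ± 35.9 CPM, a ratio of 1.38 that fell to 0.879 without Ghost cell 715. Cells of both labels thus carried the marker RNAs of the cell type. The reporter transcripts themselves were not among the genes analysed here.

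**Figure D1:**
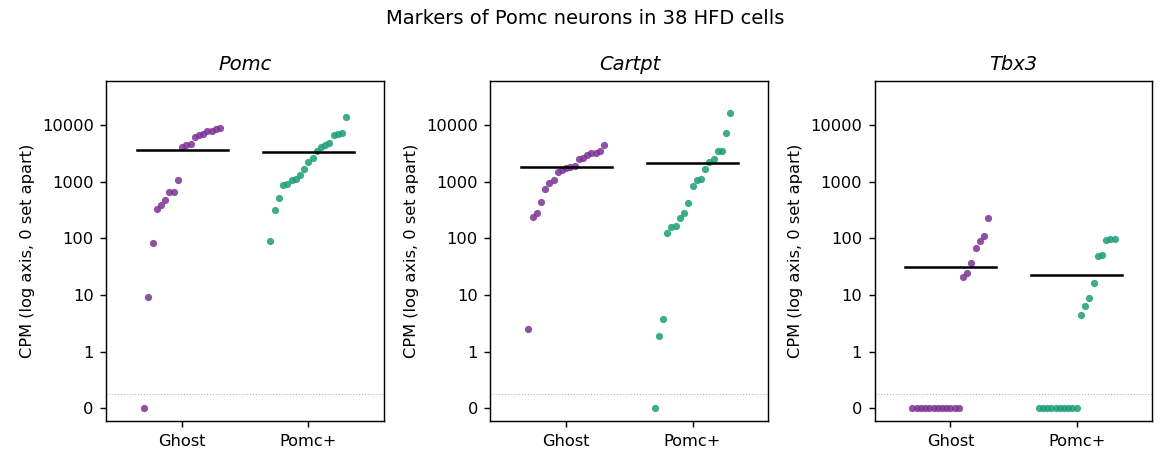
CPM of *Pomc*, *Cartpt* and *Tbx3* in the 19 Ghost (purple) and 19 Pomc+ (green) cells on HFD, on a log axis with 0 set apart; each point is 1 cell and the black bar is the group mean. *Pomc* means sit at 3686 and 3414 CPM, and for each of the 3 genes the points of both labels overlap.

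Across the transcriptome, more genes were lower than higher in Ghost cells. With 10062 genes that had at least 5 counts in at least 3 of the 38 cells, the median log2 ratio was -0.23 over the 9876 genes counted in both labels. A ratio of 2 or more was reached by 1887 genes, and 3170 had a ratio of 0.5 or less, among them 137 with no count in any Ghost cell, while 49 had none in any Pomc+ cell. Such calls often rest on few cells, since 703 genes stayed 2-fold higher and 1543 stayed 2-fold lower whichever single cell was left out. When counts were summed over the cells of a label instead of averaged, 2291 genes were higher and 2417 lower, with a median of 0.02, and with the deposited normalized values 1560 were higher and 3760 lower, with a median of -0.51. The share of cells with a count was lower in Ghost for 5318 genes (52.9%) and higher for 3027 (30.1%). These shares are the background against which the gene groups below were read. All lists were drawn up with earlier results of these cells known.

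The marker genes of hypothalamic Pomc neurons, taken from the set the study displays with these same cells and therefore no independent evidence, were spread to both sides. Of 39 genes 38 were compared; 6 were 2-fold higher in Ghost, where 18.8% of all compared genes were, and 10 were 2-fold lower, where 31.5% of all compared genes were. With any 1 cell left out, 3 stayed higher (6.99% of all genes did) and 4 stayed lower (15.3% did), and the median log2 ratio was -0.02. With counts summed over the cells of each label, 10 were higher and 5 lower. *Ctsz*, a lysosomal cysteine protease, ran from 0 to 409 CPM (median 0) in Ghost cells, and from 0 to 948 CPM (median 174) in Pomc+ cells. Most Pomc+ cells (14 of 19) but fewer Ghost cells (8 of 19) carried it, although the ranges overlapped. The means were 94.3 ± 144 and 258 ± 275 CPM, a ratio of 0.365 (0.298 to 0.429 with any 1 cell left out). That ratio was no longer 2-fold without the genes counted in every cell (0.641), with TMMwsp factors, a trimmed-mean scaling for sparse counts (0.540), or with summed counts (0.631). *Ecel1*, an endothelin-converting enzyme-like peptidase of neurons, went the other way. It ran from 0 to 436 CPM (median 118) in Ghost cells, and from 0 to 241 CPM (median 2.12) in Pomc+ cells, and 6 Ghost cells stood above the highest Pomc+ cell. Its means were 149 ± 153 and 45.3 ± 74.8 CPM, a ratio of 3.28 (2.93 to 4.32) that was 1.54 with the deposited normalized values. *Hs6st2*, a heparan sulfate sulfotransferase, had a ratio of 3.30 and was counted in 10 Ghost and 6 Pomc+ cells, and *Cpne4* had a ratio of 0.157 with counts in 4 and 7 cells. The widely counted *Gpx3* had means of 676 and 675 CPM, and *Asb4* of 690 and 453 CPM.

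**Figure D2:**
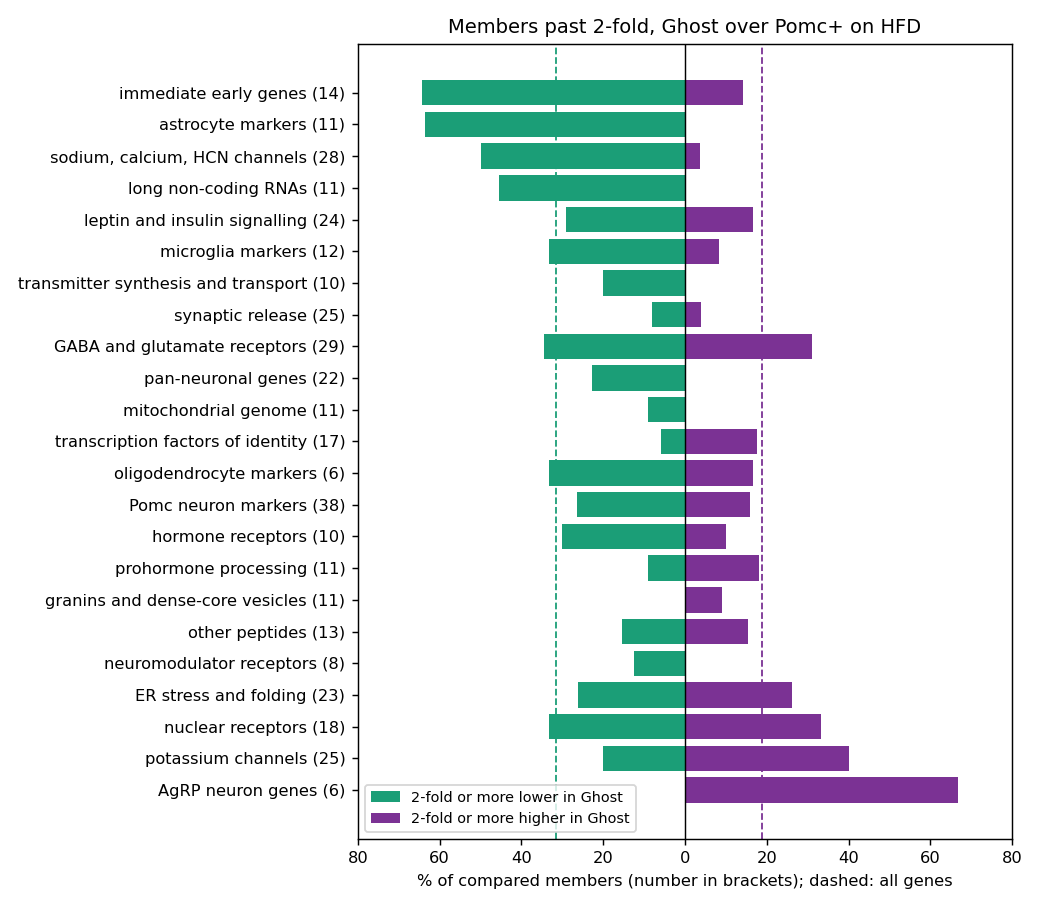
Share of the compared members of each gene list, in percent, that were 2-fold or more higher (purple, right) or lower (green, left) in Ghost than in Pomc+ cells on HFD, with the number compared in brackets and lists ordered by median log2 ratio. Dashed lines show all 10062 genes (18.8% higher, 31.5% lower); among lists with more than 1 compared member, immediate early genes (9 of 14 lower), astrocyte markers (7 of 11) and sodium, calcium and HCN channels (14 of 28) extend farthest to the left.

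Transcription factors of arcuate identity lay on both sides, with 3 of 17 higher, 1 lower and a median of -0.04. *Isl1*, which activates *Pomc* in development, had means of 97.8 and 96.0 CPM and was counted in 9 cells of each label. *Prdm12*, also required for *Pomc* expression, was counted in 7 cells of each, with means of 16.04 and 21.8 CPM. Among factors that at least 10 cells carried, the highest ratio was that of *Otp*, known from AgRP and neuroendocrine neurons, with means of 28.5 and 13.4 CPM (ratio 2.13, 1.44 to 4.56 with any 1 cell left out, and 0.387 within cells 713 to 720). *Otp* is also counted among the marker genes of AgRP neurons. *Nkx2-1*, a patterning factor of the ventral hypothalamus, had the lowest such ratio, 0.560 (0.327 to 1.799).

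Genes that cut, pack and secrete the precursor were near parity over all cells, but the runs of cell numbers went opposite ways. Of 11 prohormone processing genes 2 were higher and 1 lower (median 0.03), and of 11 granin and dense-core vesicle genes 1 was higher and 0 lower (median 0.05). Within cells 637 to 657, 4 processing genes were higher and 2 lower (median 0.40), and 3 and 0 granin genes (0.29). Within cells 713 to 720, which hold 3 Ghost cells, 3 processing genes were higher and 5 lower (median -0.71). There 0 granin genes were higher and 8 lower (median -0.98), where 31.2% of all genes were lower. *Pcsk1n*, an inhibitor of the convertase PC1/3, had means of 790 and 775 CPM, and the carboxypeptidase *Cpe* had 534 and 511 CPM. The convertases *Pcsk1* and *Pcsk2* themselves were counted in few cells, 4 and 5 for the first and 6 and 5 for the second, with means of 17.9 and 32.7 CPM and of 40.4 and 51.4 CPM. The granin exception was *Chgb*, which ran from 0 to 2636 CPM in Ghost and from 0 to 227 CPM in Pomc+ cells with both medians at 0 and counts in 9 cells of each label. Its ratio of 5.46 was 2.59 without the highest Ghost cell, so a few Ghost cells with high values carry it.

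Genes of AgRP neurons had higher means in Ghost cells, at low levels and not in every run of cell numbers. Of 8 genes 6 were compared, 4 of them were 2-fold higher and 0 lower, where 18.8% and 31.5% of all genes were. The median log2 ratio was 1.64. With any 1 cell left out 3 stayed higher and 0 lower, where 6.99% and 15.3% of all genes did. The summed level of the list ran from 0 to 499 CPM (median 74.2) in Ghost cells, and from 0 to 243 CPM (median 0) in Pomc+ cells, with at least 1 count in 16 Ghost and 9 Pomc+ cells. *Npy*, a peptide that promotes feeding, was counted in 7 Ghost and 3 Pomc+ cells, with highest levels of 304 and 175 CPM. Its means were 49.4 ± 98.9 and 10.8 ± 40.2 CPM, a ratio of 4.57 (3.26 to 29.1) that was 0.265 within cells 713 to 720. *Agrp*, the melanocortin receptor antagonist, was counted in 4 Ghost and 2 Pomc+ cells, where most of its 13.9 CPM mean in Ghost came from cell 694 at 205 CPM. None of the 5 listed pituitary genes (*Gh*, *Prl*, *Cga*, *Lhb* and *Pou1f1*) had a count in any of the 38 cells. At 3 counts this allows up to 0.325 CPM over the summed counts of the Ghost and 0.345 CPM over those of the Pomc+ cells. These genes do not mark the *Pomc*-expressing cells of the pituitary, so nothing follows for those cells. On CD *Npy* averaged 78.4 CPM in Ghost and 2.22 CPM in Pomc+ cells, and a difference between diets was not tested. Within cells 637 to 657, 2 AgRP neuron genes were higher and 3 lower, where 28.4% and 32.4% of all genes were. The 3 lower ones, *Agrp*, *Bsx* and *Serpina3i*, had no count in these Ghost cells and means of at most 1.84 CPM in the Pomc+ cells. Within cells 713 to 720, 3 AgRP neuron genes were higher and 2 lower, where 23.7% and 31.2% of all genes were. With a filter of at least 5 counts in at least 10 cells, none could be compared.

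Other peptides and transmitter genes showed no common direction. Of 13 other peptide genes 2 were higher and 2 lower, with a median of 0.21. *Tac2*, the precursor of neurokinin B, was counted in 3 Ghost and 0 Pomc+ cells, at 13.1, 278 and 292 CPM, so its mean of 30.7 CPM rested mainly on 2 cells. *Avp* and *Oxt*, peptides of magnocellular neurons, were counted in about as many cells of both labels, 10 and 9 for *Avp* and 10 and 11 for *Oxt*. Of 10 transmitter genes 0 were higher and 2 lower. The GABA-synthesising enzymes differed in direction, since *Gad1* was counted in 13 Ghost and 8 Pomc+ cells (means 227 and 133 CPM) and *Gad2* in 11 of each (143 and 190 CPM). *Slc17a6*, the vesicular glutamate transporter VGLUT2, had means of 46.8 and 23.5 CPM, a ratio of 1.99 that was 0.749 without 1 Ghost cell. The lowest ratio of the list, 0.184, belonged to *Glul*, the glutamine synthetase, which is also an astrocyte enzyme.

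Over all cells, receptors and signalling genes for leptin and insulin were called about as often as all genes, with members on both sides. Of 10 hormone receptors 1 was higher and 3 lower, and of 24 leptin and insulin signalling genes 4 were higher and 7 lower with a median of -0.54. The runs differed. Within cells 637 to 657, 6 signalling genes were higher and 7 lower, and 3 and 2 receptors. Within cells 713 to 720, 3 signalling genes were higher and 15 lower (median -1.60), and 1 and 5 receptors, where 31.2% of all genes were lower. *Lepr*, the leptin receptor, was counted in 1 Ghost and 2 Pomc+ cells, and *Insr*, the insulin receptor, in 4 of each, with means of 18.2 and 18.1 CPM. *Irs2*, an adaptor of the insulin receptor, ran from 0 to 257 CPM (median 0.841) in Ghost cells, and from 0 to 585 CPM (median 0) in Pomc+ cells. Similar numbers of cells carried it (10 and 9), and the difference lay in the height of the positive cells. Its means were 41.5 ± 66.4 and 116 ± 192 CPM, a ratio of 0.358 (0.255 to 0.462). *Mtor*, the nutrient-sensing kinase, had means of 54.4 and 8.78 CPM, a ratio of 6.19 (2.42 to 10.04), with counts in 7 and 4 cells. *Stat3*, which carries the leptin signal to the nucleus, had means of 94.6 and 105 CPM. Of 8 compared receptors for neuropeptides and other modulators 0 were higher and 1 lower.

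Among 18 nuclear receptors, 6 were higher and 6 lower, with 2 and 5 that held with any 1 cell left out (6.99% and 15.3% of all genes did). *Nr3c1*, the glucocorticoid receptor, ran from 0 to 71.5 CPM (median 5.36) in Ghost cells, and from 0 to 433 CPM (median 17.4) in Pomc+ cells. It was counted in 10 and 12 cells, and 7 Pomc+ cells stood above the highest Ghost cell. Its means were 19.2 ± 24.1 and 97.1 ± 142 CPM, a ratio of 0.198 (0.168 to 0.245), with 0.224 in cells 637 to 657. *Thra*, the widely counted thyroid hormone receptor, had means of 225 and 252 CPM. *Nr1d1*, a repressor of the circadian clock, had a ratio of 2.83 (2.08 to 6.27, and 0.915 with summed counts).

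The immediate early genes, transcribed within minutes of neuronal activity or other stimuli and without new protein synthesis, were mostly lower in Ghost cells. Of 22 genes 14 were compared, 9 were 2-fold lower and 2 higher, where 31.5% and 18.8% of all compared genes were. The median log2 ratio was -1.57, and 12 of the 14 had a ratio below 1. With any 1 cell left out 6 stayed lower and 0 stayed higher, where 15.3% and 6.99% of all compared genes did. The summed level of the list ran from 0 to 2791 CPM (median 373) in Ghost cells, and from 26.4 to 10709 CPM (median 904) in Pomc+ cells.
*Egr1* ran from 0 to 513 CPM (median 0) in Ghost cells, and from 0 to 1618 CPM (median 131) in Pomc+ cells. It was counted in 9 and 13 cells, and 5 Pomc+ cells stood above the highest Ghost cell. Its means were 102 ± 161 and 286 ± 404 CPM, a ratio of 0.357 (0.277 to 0.481), with 0.412 in cells 637 to 657 and 0.575 with summed counts. *Junb* ran from 0 to 163 CPM (median 0) in Ghost cells, and from 0 to 790 CPM (median 23) in Pomc+ cells. Here 6 Pomc+ cells exceeded the highest Ghost cell. The means were 32.1 ± 57.5 and 157 ± 244 CPM, a ratio of 0.205 (0.158 to 0.264).
*Jun* had a count in more Ghost than Pomc+ cells (10 and 8), yet its highest levels were 133 and 631 CPM and its means 32.4 and 112 CPM, a ratio of 0.288 (0.238 to 0.387). *Fos*, its partner in the AP-1 dimer, differed less. It was counted in 12 Ghost and 16 Pomc+ cells, with medians of 75.3 and 285 CPM and highest levels of 2326 and 4065 CPM. Its means were 334 ± 614 and 520 ± 918 CPM, a ratio of 0.643 that became 1.03 when Pomc+ cell 638 was left out. The highest Ghost level of *Fos* came from shallow cell 657 (12900 counts), and without that cell the ratio is lower than 0.643. That cell also held the highest Ghost sum of the list, 2791 CPM.
*Btg2*, an antiproliferative regulator, and *Dusp1*, a phosphatase of MAP kinases, both of which carry the TGACGTCA element shown above, had ratios of 0.109 (0.00615 to 0.171) and 0.242 (0.129 to 0.376). *Btg2* was counted in 3 Ghost and 6 Pomc+ cells, and *Dusp1* in 7 and 6. *Jund*, counted in 15 cells of each label, had means of 23.5 and 31.1 CPM. The exception in direction among genes counted in at least 10 cells was *Npas4*, an activity-dependent factor of neurons, with means of 57.5 and 26.6 CPM (ratio 2.16, 1.31 to 4.17, and 0.685 with summed counts). *Atf3* was counted in 1 Ghost and 2 Pomc+ cells, and a single Pomc+ cell held nearly all of it. Within cells 637 to 657, 9 members were lower and 2 higher, where 32.4% and 28.4% of all genes were. Within cells 713 to 720, 8 were lower and 3 higher, where 31.2% and 23.7% of all genes were. On CD the summed medians were 258 CPM in Ghost and 425 CPM in Pomc+ cells, and the difference between diets was not tested.

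**Figure D3:**
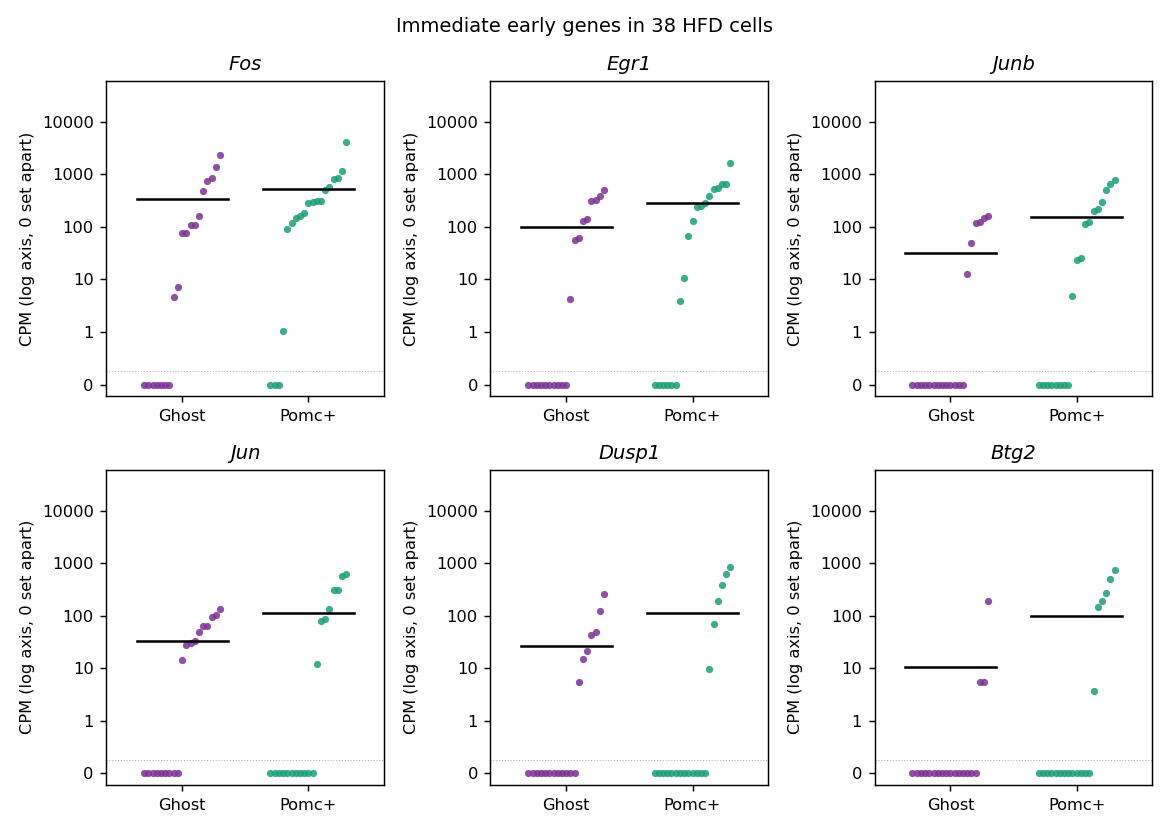
CPM of 6 immediate early genes in the 19 Ghost (purple) and 19 Pomc+ (green) cells on HFD, on a log axis with 0 set apart; points are cells and black bars group means. The highest cells of *Egr1* (1618 CPM), *Junb* (790 CPM) and *Jun* (631 CPM) are Pomc+, and many cells of both labels lie at 0.

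Genes of protein folding and stress in the endoplasmic reticulum were divided, with 6 of 23 higher, 6 lower and a median of 0.35. The chaperone *Hsp90b1* had means of 130 and 129 CPM and *Canx* of 138 and 221 CPM. *Atf4*, an effector of the stress response, had a ratio of 2.16 (1.47 to 3.40, and 0.672 with summed counts) and *P4hb*, a disulfide isomerase, of 0.422 (0.226 to 0.606, and 0.538 with summed counts).

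Genes of the neuronal cell type as such were present in both labels. Of 22 pan-neuronal genes 0 were higher and 5 (22.7%) lower, where 18.8% and 31.5% of all genes were, and the median was -0.17. All 5 stayed lower with any 1 cell left out, where 15.3% of all genes did. *Uchl1*, a ubiquitin hydrolase abundant in neurons, was counted in 18 Ghost and 17 Pomc+ cells, and *Celf4*, a neuronal RNA-binding protein, in 17 of each. *Mapt*, which encodes the microtubule protein tau, ran from 0 to 547 CPM (median 37.6) in Ghost cells, and from 0 to 1302 CPM (median 304) in Pomc+ cells. It was counted in 10 Ghost and 17 Pomc+ cells, and in the thinned cells in an expected 9.0 of 16 and 17 of 18. The means were 140 ± 181 and 353 ± 305 CPM, a ratio of 0.396 (0.332 to 0.465). The neurofilament gene *Nefl* had a ratio of 0.218 (0.0595 to 0.432, and 1.06 within cells 713 to 720). Among 25 genes of synaptic release 1 was higher and 2 lower. *Snap25* had means of 553 and 821 CPM and *Vamp2* of 595 and 366 CPM, both members of the vesicle fusion complex counted in 17 cells of each label, and *Cplx1*, which clamps that complex, had means of 92.1 and 7.32 CPM (ratio 12.6, 5.36 to 36.1, and 0.218 within cells 713 to 720).

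Channels that carry sodium and calcium had lower means in Ghost cells for many members, but few of these differences held when single cells were left out. Of 28 sodium, calcium, HCN and related cation channel genes, 14 were 2-fold lower in Ghost cells and 1 was higher. Over all compared genes 31.5% were lower and 18.8% higher. The median log2 ratio of the channel genes was -1.05. Only 2 of the 14, *Cacna1a* and *Cacna1d*, stayed lower with any 1 cell left out, a smaller share of the 28 than the 15.3% of all compared genes. *Cacna1a*, the pore of P/Q-type calcium channels, ran from 0 to 72.6 CPM in Ghost and from 0 to 537 CPM in Pomc+ cells with both medians at 0, and was counted in 4 and 7 cells. Its means were 7.83 ± 18.6 and 74.2 ± 165 CPM, a ratio of 0.106 (0.0571 to 0.162). *Cacna1d*, the pore of a low-threshold L-type channel, was counted in 3 and 8 cells with means of 6.31 and 35.8 CPM, a ratio of 0.177 (0.0366 to 0.294). *Scn2a*, a sodium channel of axon and soma, was the most widely counted, in 9 and 11 cells. It ran from 0 to 184 CPM (median 0) in Ghost cells, and from 0 to 462 CPM (median 8.15) in Pomc+ cells, with means of 38.3 ± 63.4 and 87.2 ± 155 CPM and a ratio of 0.440 (0.347 to 0.577, and 0.676 with summed counts). *Cacnb2*, an auxiliary calcium channel subunit, had means of 70.3 and 39 CPM (ratio 1.801, 0.903 to 2.30). The count of lower members was sensitive to the cells: it was 17 within cells 637 to 657, 7 within cells 713 to 720, where 12 were higher, and 8 when Pomc+ cell 654 was left out. Over all genes 32.4% were lower within cells 637 to 657, and 31.2% lower and 23.7% higher within cells 713 to 720.

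**Figure D4:**
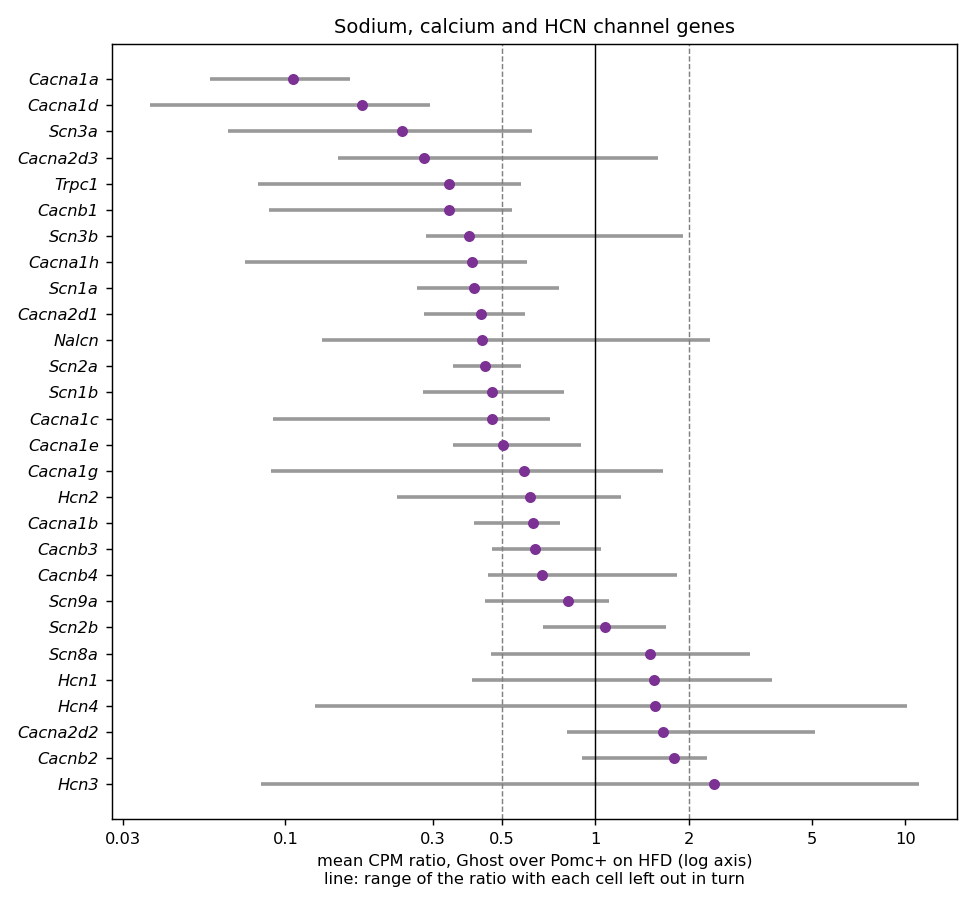
Ratio of mean CPM, Ghost over Pomc+ on HFD, of the 28 compared sodium, calcium, HCN and related channel genes on a log axis, with lines from the lowest to the highest ratio when any 1 cell is left out. Of the 28 genes 21 have a ratio below 1, and the line stays at or below 0.5 for *Cacna1a* and *Cacna1d*.

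With 18.8% of all genes higher and 31.5% lower, 10 of 25 potassium channel genes were higher and 5 lower, with a median of 0.51. With any 1 cell left out 2 and 3 of them held, where 6.99% and 15.3% of all genes did. *Kcnq3*, a subunit of the M-current channel, ran from 0 to 77.5 CPM (median 0) in Ghost cells, and from 0 to 854 CPM (median 2.54) in Pomc+ cells. It was counted in 2 Ghost and 10 Pomc+ cells. The means of *Kcnq3* were 4.88 and 92.1 CPM, a ratio of 0.0529 (0.00912 to 0.0980), but 0.640 within cells 637 to 657. Highest levels of this size can come from a few reads in the shallow cells 657 (Ghost) and 693 (Pomc+). *Kcna2*, a delayed-rectifier subunit that was picked after its values were seen, had the opposite pattern, with counts in 8 Ghost and 1 Pomc+ cells and means of 33.3 and 0.911 CPM (ratio 36.5, 19.7 to 96.5). *Kcnd2*, an A-type channel, had a ratio of 8.11 that was 1.58 without 1 Ghost cell and 0.967 within cells 637 to 657.

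Receptors of the fast transmitters were divided as well, with 9 of 29 GABA and glutamate receptor genes higher, 10 lower and a median of -0.17. *Gabbr1*, a subunit of the metabotropic GABA-B receptor, was counted in 16 Ghost and 13 Pomc+ cells. It ran from 0 to 287 CPM (median 198) in Ghost cells, and from 0 to 265 CPM (median 14.6) in Pomc+ cells, so that the ranges nearly coincided, with 14 Ghost cells above the Pomc+ median and 3 Pomc+ cells above the Ghost median. The means were 145 ± 116 and 67.5 ± 85.6 CPM, a ratio of 2.15 (2.03 to 2.57), with 2.73 in cells 637 to 657 and 1.76 with TMMwsp factors. *Gria2*, the AMPA receptor subunit that limits calcium entry, had a ratio of 0.364 (0.268 to 0.551) that was 3.42 within cells 713 to 720. *Gabrq*, the theta subunit of the GABA-A receptor, had means of 80.6 and 9.47 CPM (ratio 8.51, 4.73 to 13.4) with counts in 5 and 6 cells.

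Transcripts of the mitochondrial genome were close, with 0 of 11 higher, 1 lower and a median of -0.12. *mt-Co1*, a subunit of cytochrome c oxidase, had means of 1674 and 2264 CPM. Long non-coding RNAs had 0 of 11 higher and 5 lower, where 18.8% and 31.5% of all genes were, and a median of -0.79. With any 1 cell left out 3 stayed lower, where 15.3% of all genes did. The summed level of the list, however, had a median of 1096 CPM in Ghost and 1097 CPM in Pomc+ cells. With the deposited normalized values 8 were lower (median -1.30), where 37.4% of all genes were, and with TMMwsp factors 5 were. With summed counts 2 were lower and the median was 0.02, and within cells 713 to 720 5 were higher, 3 lower and the median was 0.90. *Meg3*, an imprinted RNA of neurons that also stands in the pan-neuronal list, ran from 0 to 5792 CPM (median 252) in Ghost cells, and from 0 to 24362 CPM (median 59.7) in Pomc+ cells. Its mean ratio of 0.270 (0.174 to 0.459) and its medians thus point in opposite directions. *Gas5*, a host of small nucleolar RNAs, had means of 434 and 269 CPM.

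Markers of glia were counted in cells of both labels. All 11 astrocyte markers had a ratio below 1, 7 were 2-fold lower in Ghost, where 31.5% of all genes were, and the median was -1.33. With any 1 cell left out 5 stayed lower, where 15.3% of all genes did. Their summed level ran from 0 to 3411 CPM (median 690) in Ghost cells, and from 0 to 4853 CPM (median 937) in Pomc+ cells. *Slc1a3*, the glutamate transporter of astrocytes, had means of 6.32 and 82.2 CPM (ratio 0.0769, 0.0454 to 0.0985), whereas *Apoe* had 637 and 756 CPM. Of the 5 cells with the highest sums, 4 were Pomc+ (650, 673, 718 and 719) and 1 was Ghost (657), and without them 5 astrocyte markers were 2-fold lower and 2 higher. Without these cells 9 immediate early genes and 18 sodium, calcium and HCN channel genes were 2-fold lower, and 7 potassium channel genes were higher and 9 lower. Of 6 oligodendrocyte markers 1 was higher and 2 lower, with *Cnp* at 14.6 and 153 CPM. Of 12 microglia markers 1 was higher and 4 lower, 0 of them with any 1 cell left out. The direction turned without the 5 cells, where 7 were higher and 0 lower with a median of 0.99, and with the deposited normalized values, where 4 were higher and 1 lower. Their summed level had a median of 835 CPM in Ghost (0 to 10233) and 348 CPM in Pomc+ cells (0 to 14573), with *Ctss*, a lysosomal protease of microglia, counted in 10 and 9 cells. Of the markers of oligodendrocyte precursors, endothelium and tanycytes, 1, 1 and 0 passed the filter. On CD the medians of the microglial sum were 3.98 and 47.8 CPM, a difference between diets that was not tested. All 11 astrocyte markers, all 12 microglia markers and 7 of 10 oligodendrocyte markers were counted in cells of both labels, and their part in the results above was not tested. The values without the 5 cells cannot decide it. Those cells were chosen by their astrocyte sums, and other cells of both labels also held these markers.

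**Figure D5:**
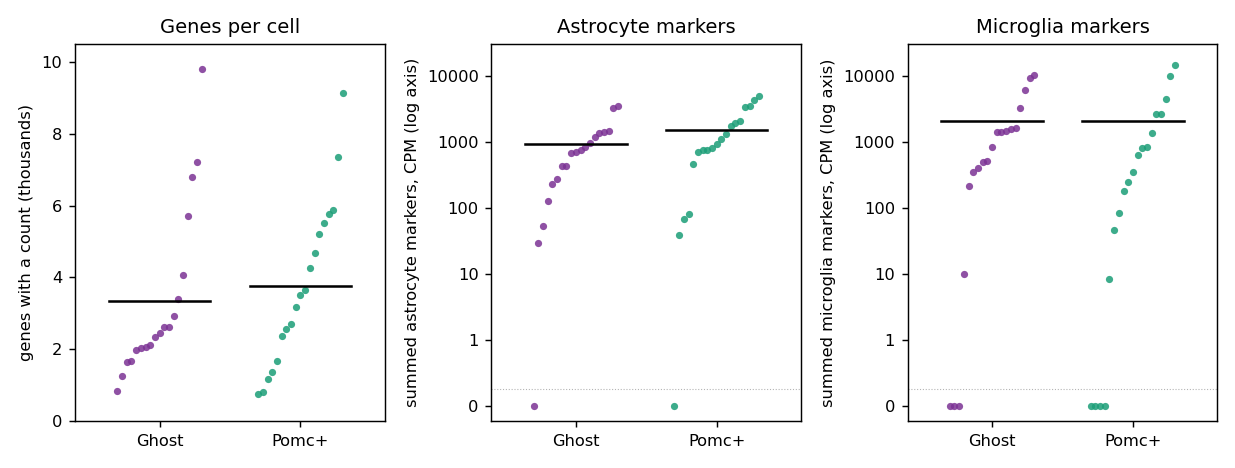
Genes with a count and summed CPM of astrocyte and of microglia markers per cell on HFD, for Ghost (purple) and Pomc+ (green) cells. The gene numbers are on a linear axis and the sums on a log axis with 0 set apart. Black bars are group means. Genes with a count reach 9808 in Ghost and 9144 in Pomc+ cells. Astrocyte sums reach 3411 and 4853 CPM, and microglia sums 10233 and 14573 CPM.

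Outside the lists, genes were named by the size and steadiness of the ratio among 4494 genes counted in at least 10 of the 38 cells. Of these 211 stayed 2-fold higher and 449 stayed 2-fold lower with any 1 cell left out. The 10 highest ratios, from 20.3 to 31.4, were those of *Bag4*, *Ngly1*, *Cpsf3*, *Fam81a*, *Paip2b*, *Ppargc1a*, *Ipo5*, *Pgm5*, *Mosmo* and *Snhg8*. *Ppargc1a*, the coactivator of mitochondrial biogenesis, was counted in 7 Ghost and 4 Pomc+ cells. Its highest level was 465 CPM in Ghost and 17.4 CPM in Pomc+ cells, and its means were 52.9 and 2.37 CPM, a ratio of 22.4 (12.7 to 34.6). That Ghost level came from a few reads in shallow cell 657 (12900 counts) and made up 46.3% of the Ghost sum. *Ngly1*, which removes N-glycans from misfolded proteins, had a ratio of 27.8 that ranged from 6.23 to 59.4. The highest Ghost levels of *Ngly1* and *Fam81a* also came from cell 657 and made up 78.8% and 64.1% of the Ghost sums. For *Pgm5* shallow Ghost cell 713 held 79.0%. The 10 lowest ratios, from 0.0188 to 0.0619, were those of *Spred2*, *Slc25a18*, *Mark4*, *Usp20*, *Atxn1l*, *Nudt4*, *Nadk*, *Golga3*, *Ttyh3* and *Dclre1c*. For *Atxn1l* shallow Pomc+ cell 693 held 82.5% of the Pomc+ sum. *Slc25a18*, a mitochondrial glutamate carrier, had means of 2.90 and 118 CPM and counts in 4 and 7 cells. *Nadk*, the NAD kinase, had means of 3.59 and 70.3 CPM and counts in 3 and 7 cells.

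The genes found more often in Ghost cells, by number of cells with a count, were *Mink1*, *Cntn1*, *Fam81a*, *Rsrc1*, *Snhg8*, *Fam162a*, *Slc6a15*, *Tcf4*, *Polr1d* and *Arl6ip5*. *Cntn1*, a neuronal adhesion molecule, was counted in 15 Ghost and 7 Pomc+ cells, with medians of 43.9 and 0 CPM and a ratio of 4.92 (4.13 to 8.26). In thinned cells the expected numbers were 11.5 of 16 and 4.52 of 18. *Tcf4*, a transcription factor of neurons, was counted in 16 and 9 cells with a ratio of 2.56 (1.15 to 3.35, and 0.820 within cells 713 to 720), and *Slc6a15*, a transporter of neutral amino acids, in 9 and 2. The highest *Tcf4* level, in shallow Ghost cell 657, made up 57.6% of the Ghost sum. For *Rsrc1* shallow Ghost cell 713 held 45.4%. Genes found less often were *Snrpg*, *Blcap*, *Usp20*, *Exosc1*, *Inpp5f*, *Sesn3*, *Tulp4*, *Dctn2*, *Hif1a* and *Ndufa8*. *Hif1a*, the oxygen-sensing factor, was counted in 3 Ghost and 11 Pomc+ cells, with highest levels of 164 and 334 CPM. Its means were 10.4 ± 37.5 and 78.4 ± 102 CPM, a ratio of 0.133 (0.0242 to 0.162). *Snrpg*, a core protein of the spliceosome, was counted in 7 and 16 cells, and *Blcap* in 6 and 15 with means of 40.7 and 186 CPM. *Ndufa8*, a subunit of respiratory complex I, was counted in 7 and 15 cells, which in thinned cells became an expected 6.0 of 16 and 14.4 of 18. All of these genes had cells of both labels at 0, so none separated the labels without overlap.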

How the data were processed

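Patch-seq libraries of the 38 HFD neurons were analysed, with the 38 CD neurons for reference. Per the labels, cDNA was synthesised with a SMART-Seq kit for single cells and libraries with Nextera XT, sequenced on 1 NovaSeq lane. The submitters' processing notes name cutadapt 2.10, STAR 2.7.5a, DESeq2, GRCm38 and mm10; the counting program and annotation are not given in the sources used here. The deposited raw table holds whole-number counts for 56980 genes without normalization, and no molecular identifiers are described. In the second table, the deposited signal is the count divided by 1 factor per cell in 76 of 76 cells (tolerance 0.5 counts); it served as an alternative. Symbols matched 52073 identifiers; the 4907 others held 38.6% of HFD counts, and 7 genes counted in every cell held 46.3%, which moves every CPM value.

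CPM, ratios of group means, exact Clopper-Pearson and Poisson intervals at 95% and expected thinned values were computed with Python 3.11.15, numpy 2.4.6, pandas 2.3.3 and scipy 1.17.1, TMMwsp factors with edgeR 4.0.16 (R 4.3.3), and figures with matplotlib 3.10.9. No p-value was made, because each label is 1 sample. A group at 0 was set to 3 counts over its summed counts, which is no bound on a mean CPM; this put 137 genes at 0 in Ghost among the lower and 49 at 0 in Pomc+ cells among the higher ones. No cell was left out of the values given first, no 2 cells held identical counts, and no doublet caller was run, since each cell was drawn by hand. The scripts were tested on simulated data. Members and lists were chosen with earlier results of these data known. In lists, examples were the members counted in most cells and those with the highest and lowest ratio among members counted in at least 10 cells, with defining genes of the group added. Outside lists, without Gm, Rik and pseudogene names, the 10 highest and 10 lowest ratios that stayed past 2-fold with any 1 cell left out and the 10 largest differences in share each way were named. Sequences are RefSeq's, on GRCm38.p6, and gene positions GENCODE's, on GRCm38. Alternatives were 3 other scalings, summed counts, medians, other filters, a pseudocount of 1 CPM, runs of cell numbers and leaving out cells.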

Additional observations from a re-analysis of the deposited data

How the results depend on the processing

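No paired analysis was possible because each cell number occurs once and no label ties a Ghost cell to a Pomc+ cell. A ratio or count was taken as moved when it left 1.5 times the value given first, and as reversed when a 2-fold ratio changed sides of 1. Ratios of *Pomc* and *Cartpt* moved to 1.89 and 2.07 with medians over cells, to 1.66 and 1.48 in cells 637 to 657 and to 0.152 and 0.388 in cells 713 to 720. With any 1 cell left out *Tbx3* ranged from 0.879 to 1.70 and *Cartpt* from 0.775 to 1.31. Genes 2-fold higher numbered 2858 in cells 637 to 657, 2856 without a filter, and 414 when 10 cells had to reach 5 counts, where 717 were lower. The median of the Pomc marker list was -1.43 in cells 713 to 720.

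Under that filter of 10 cells 4 immediate early genes, 7 sodium, calcium and HCN channel genes and 4 astrocyte markers were lower, and 0 AgRP neuron genes were higher, since fewer genes were compared. The channel count was also 9 without the genes counted in every cell, 8 with summed counts, 7 in cells 713 to 720, and 8 to 16 with any 1 cell left out. In cells 637 to 657, 2 AgRP neuron genes were higher and 3 lower. The cause of these shifts was not tested. Over all genes the median log2 ratio was -0.51 with the deposited normalized values, -0.26 with TMMwsp factors, -0.11 without the genes counted in every cell and 0.02 with summed counts.

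Of the genes named, ratios reversed with summed counts for *Atf4* (0.672), *Npas4* (0.685) and *Nr1d1* (0.915), with medians for *Meg3* (4.21), in cells 637 to 657 for *Kcnd2* (0.967), and in cells 713 to 720 for *Atxn1l* (1.18), *Cplx1* (0.218), *Gria2* (3.42), *Meg3* (1.86), *Nefl* (1.06), *Npy* (0.265), *Otp* (0.387) and *Tcf4* (0.820). Otherwise 662 values for named genes moved by less than 1.5 times and 380 by more without reversing. Many named genes were counted in fewer than 10 cells of a label, so their means rest on few cells, and with 1 sample per label the spread between mice is not known.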
